A study of Mus musculus with 12 samples.

Results

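RAEB and MDS/MPN LSK cells were compared through 1 array of each, which are 2 of the 12 arrays of the series. The pair was chosen by its labels: the LSK array labelled RAEB and the LSK array labelled MDS/MPN, which lay on the same slide. Both were set beside the 4 LSK arrays of cells without disease. The arrays were one-colour Agilent arrays, on which total RNA of sorted bone marrow cells was measured as the brightness of a labelled copy. LSK cells, sorted as lacking lineage markers and carrying Sca-1 and c-Kit, are the marrow fraction that holds blood stem cells and multipotent progenitors. The other 6 arrays held granulocyte-macrophage progenitors (GMPs).

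All cells were C57BL/6 cells from the bone marrow of recipient mice repopulated with fetal liver cells. The RAEB array held Tet2KD/KDEzh2-/- cells of mice with refractory anaemia with excess of blasts, and the MDS/MPN array held Tet2KD/KDEzh2-/- cells of mice with myelodysplastic/myeloproliferative neoplasm. Both diseased groups therefore carried the same Tet2 knockdown and the same loss of Ezh2. Of the 4 arrays without disease, 1 held wild-type cells, 1 held Tet2KD/KD cells, 1 held cells without Ezh2 (Ezh2-/-) and 1 held Tet2KD/KDEzh2-/- cells, called double mutant here. The labels do not give the age or number of mice behind an array, and each group had 1 array. No difference below was therefore tested, and each is a size measured between single arrays.

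Levels are given as log2 of the processed signal minus log2 of that array's 75th percentile, so a level of 0 is the 75th percentile and a difference of 1 is 2-fold. Replicate spots of 1 probe differed within an LSK array by a median SD of 0.06 to 0.07, which gave a technical SD of 0.09 for a difference between the arrays. That SD rests on 215 replicate probes well above background on every array, so it does not cover dim probes. It holds differences between spots within an array, and not labelling, hybridization or the spread between mice. The percentage of gene spots well above background ran from 48.9 to 52.3% on the LSK arrays. The 4 arrays without disease lay on another slide than the diseased pair, so the slide and the disease cannot be told apart where both diseased arrays differ from those 4.

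Neutrophils store antimicrobial proteins in granules that are filled in order, with the primary granules filled in early myeloid progenitors and the later granules only in maturing cells. Eosinophils, basophils and mast cells carry their own granule proteins and enzymes. Early B cells display a surrogate light chain, built from the Vpreb and Igll1 proteins, before they have a complete antibody. Immediate-early genes such as Fos, Egr1 and Nr4a1 are switched on within minutes of a stimulus without new protein synthesis. RAEB is a myelodysplastic disease with an excess of immature blasts, and MDS/MPN combines dysplasia with overproduction of mature myeloid cells.

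The targeted genes were close to level between the diseased arrays. Tet2, which oxidises methylated cytosine, read -1.27 in MDS/MPN and -1.22 in RAEB, beside 0.44 in wild-type, -1.61 in Tet2KD/KD, 0.12 in Ezh2-/- and -0.79 in double mutant. Ezh2, the histone methyltransferase of Polycomb repressive complex PRC2, read 3.16 in MDS/MPN and 3.28 in RAEB and 2.50 to 2.82 on the other arrays, the Ezh2-/- array included. Where the Ezh2 and Tet2 probes lie with respect to the altered parts of these genes is not given, so neither probe checks the genotype. The genes that the cells were sorted to carry were within 2-fold between the diseased arrays. Kit read 4.38 in MDS/MPN and 4.34 in RAEB, and Ly6a, which encodes Sca-1, read 4.06 and 4.37. Of 11 listed sort-defining and lineage marker genes well above background on both arrays, 2 were at least 2-fold higher in RAEB and 0 lower. The higher share was 18.2%, against 2.08% over all genes compared. Of the lineage genes, Cd8a was not well above background on either array. Cd3e (1.36 and 1.31), Cd4 (2.42 and 2.26) and Itgam (4.85 and 4.51) were, on these arrays and on all 4 without disease, so the lineage genes were not uniformly low in the sorted cells. Xist, the transcript that silences an X chromosome in females, read 1.35 in MDS/MPN and 1.63 in RAEB, 2.57 in wild-type and 2.52 in double mutant, and was not well above background in Tet2KD/KD and Ezh2-/-. The sex of the mice is not given.

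Genes were compared where the probe was well above background on the RAEB array, the MDS/MPN array or both, which 13455 genes were. Of these, 280 were at least 2-fold higher in RAEB, which is 2.08%, and 370 were at least 2-fold lower, which is 2.75%. The median difference over all genes compared was 0.04, and 58.1% of the differences were above 0. With each array's median in place of its 75th percentile, the median difference was 0.19 and the share of higher genes among those 2-fold apart was 53.9%, against 43.1% here. At least 4-fold differences were found for 122 higher and 142 lower genes, and at least 16-fold for 14 higher and 22 lower genes. Genes just at the threshold were few: 7 higher genes lay within 0.02 inside it and 7 within 0.02 outside it, and 15 and 9 lower genes did.

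Many of these genes were dim on one side. Only 121 of the higher and 153 of the lower genes were well above background on both arrays. For the 159 higher and 217 lower genes that were well above background on 1 array, the dim side is only a bound. It was taken as the lowest signal among probes well above background on that array, or the probe's own signal where that was higher, and folds from it are written as "at least". Such a fold holds for the background treatment used here and is not a guaranteed minimum. The bound itself reached 2-fold for 87 of these higher and 83 of these lower genes.

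RAEB and MDS/MPN, which shared a slide, were closer to each other than either was to the cells without disease. Together these 650 genes that were 2-fold apart are 4.83% of those compared. Between RAEB and each of the 4 arrays without disease 1194 to 1889 genes were 2-fold apart, and between MDS/MPN and those arrays 1384 to 1856. The 6 pairs among the arrays without disease differed at 494 to 915 genes, so the count of the diseased pair lay within that of arrays of different genotype on 1 slide. The SD of the differences, over genes well above background on both arrays, was 0.39 for RAEB against MDS/MPN and 0.34 to 0.48 among the arrays without disease.

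**Figure D1:**
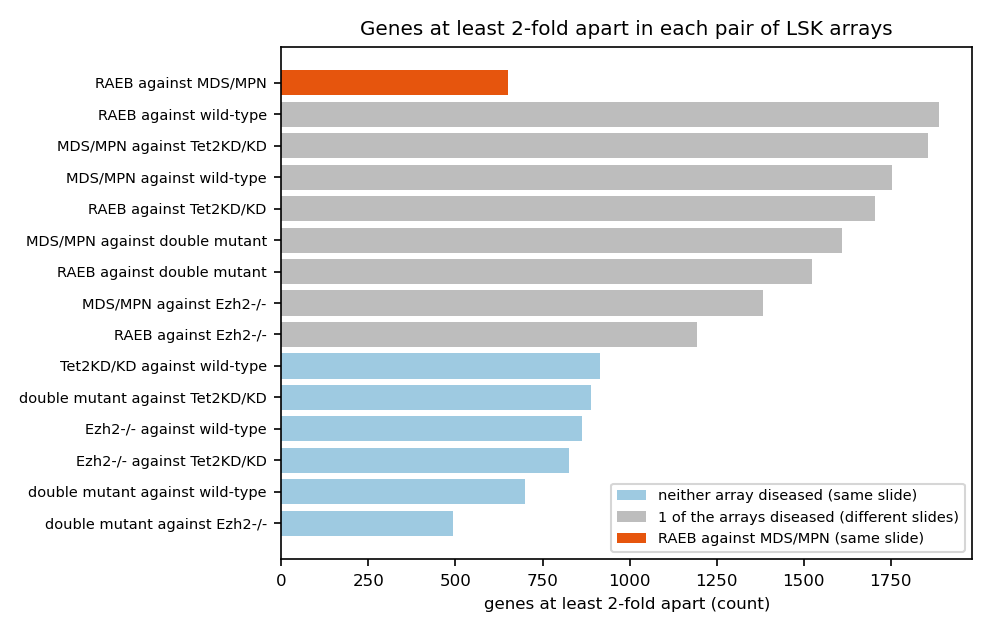
Number of genes at least 2-fold apart in each of the 15 pairs of LSK arrays, by whether the pair holds diseased cells; the horizontal axis is a count of genes. RAEB against MDS/MPN gave 650 genes, within the 494 to 915 of the pairs without disease and below the 1194 to 1889 of the pairs of a diseased and a non-diseased array, which also lay on different slides.

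The same 2-fold difference came about in different ways for different genes. Of all genes compared, RAEB lay above all 4 arrays without disease for 38% and below all of them for 21.9%, and MDS/MPN above for 33.7% and below for 24.4%. Among the 280 genes higher in RAEB, RAEB lay above the 4 for 148 and MDS/MPN lay below the 4 for 202, and 82 genes had both. Among the 370 lower genes, MDS/MPN lay above the 4 for 273 and RAEB below the 4 for 178, and 95 had both. For 82 of the higher genes and 109 of the lower genes RAEB lay within the range of the 4 arrays and only MDS/MPN lay outside it. The difference was larger than the whole range over the 4 arrays for 206 of the higher and 268 of the lower genes, and for 11.1% of all genes compared.

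**Figure D2:**
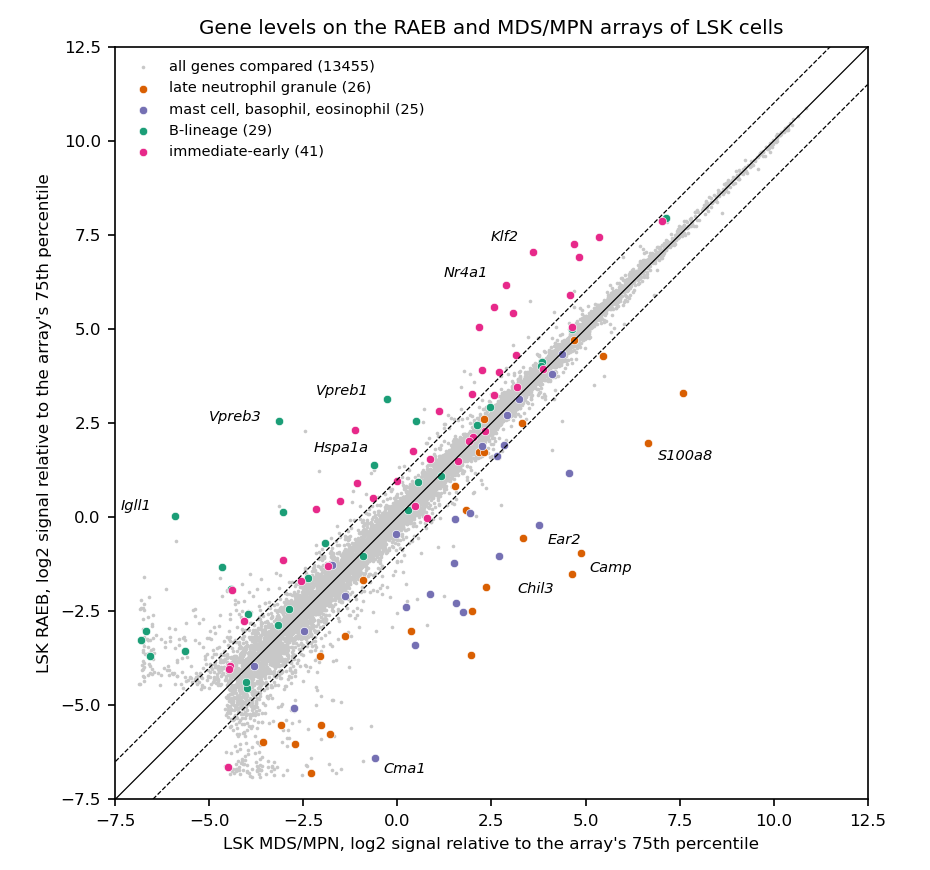
Levels of the 13455 genes compared on the MDS/MPN array (horizontal) and the RAEB array (vertical), in log2 signal relative to each array's 75th percentile; the solid line is equality, the dashed lines are 2-fold, and the colours mark 4 gene lists. Camp (-5.84) and Ear2 (-3.99) lie below the 2-fold lines, and Vpreb3 (5.69) and Nr4a1 (3.29) above them, while other members of the coloured lists lie within 2-fold.

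Genes of late neutrophil granules were the lowest in RAEB relative to MDS/MPN. Of 26 listed genes compared, 19 were at least 2-fold lower in RAEB and 0 were higher, and the list's median difference was -2.88 against 0.04 over all genes, or -1.83 with dim members at their bound. Over the 20 members measured on both arrays, 13 were lower and the median was -1.72. Camp, the gene of the antimicrobial peptide cathelicidin, read 3.13 in wild-type, 1.04 in Tet2KD/KD, 1.07 in Ezh2-/-, -0.61 in double mutant, 4.88 in MDS/MPN and -0.96 in RAEB. MDS/MPN was thus the highest of the 6 arrays and RAEB the lowest, and RAEB was 57.4-fold below MDS/MPN.

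The other leading neutrophil genes had the same shape. Chil3, a chitinase-like protein of maturing neutrophils and macrophages, read 4.64 in MDS/MPN and -1.51 in RAEB, with the other arrays between -1.07 and 1.06, a difference of -6.15. Ngp, a neutrophil granule protein, read -0.38 in wild-type, -3.33 in Tet2KD/KD, -3.07 in Ezh2-/-, -3.13 in double mutant, 1.96 in MDS/MPN and -3.66 in RAEB. Here too MDS/MPN was the only array above the wild-type level, and RAEB the lowest. S100a8 and S100a9, the subunits of the calcium-binding protein calprotectin, read 6.66 and 7.60 in MDS/MPN and 1.97 and 3.29 in RAEB, where their levels were within the range of the 4 arrays (1.31 to 4.47 and 2.72 to 5.803).

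Lactoferrin (Ltf, -4.50), the granule protein gene Wfdc21 (-4.23) and the iron-chelator-binding lipocalin Lcn2 (-3.91) were also inside the range of the 4 arrays in RAEB and above it in MDS/MPN. Stfa1, a cysteine protease inhibitor, was well above background only in MDS/MPN, where it was at least 4.91-fold higher. Stefin genes are close copies of each other, so a Stfa1 probe may read its relatives. Cxcr2, the chemokine receptor of mature neutrophils, differed less, from -0.92 to -1.67. All 19 lower members lay above the 4 arrays in MDS/MPN. In RAEB, 10 of the 19 lay within the range of the 4, 5 above it and 4 below it.

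These genes are markers of cells that the LSK gate is meant to leave out, and in bulk RNA fewer such cells and less RNA per cell cannot be told apart. The summed signal of the 28 listed genes on the array was 8.90 on the log2 scale in MDS/MPN and 6.38 in RAEB. It was 7.13 in wild-type and 5.59 to 6.16 on the other arrays without disease, so RAEB was inside the range of the 4 and MDS/MPN above it. Among the 4, the wild-type array held the most of this signal. The part of contained neutrophils in the difference was not tested.

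**Figure D3:**
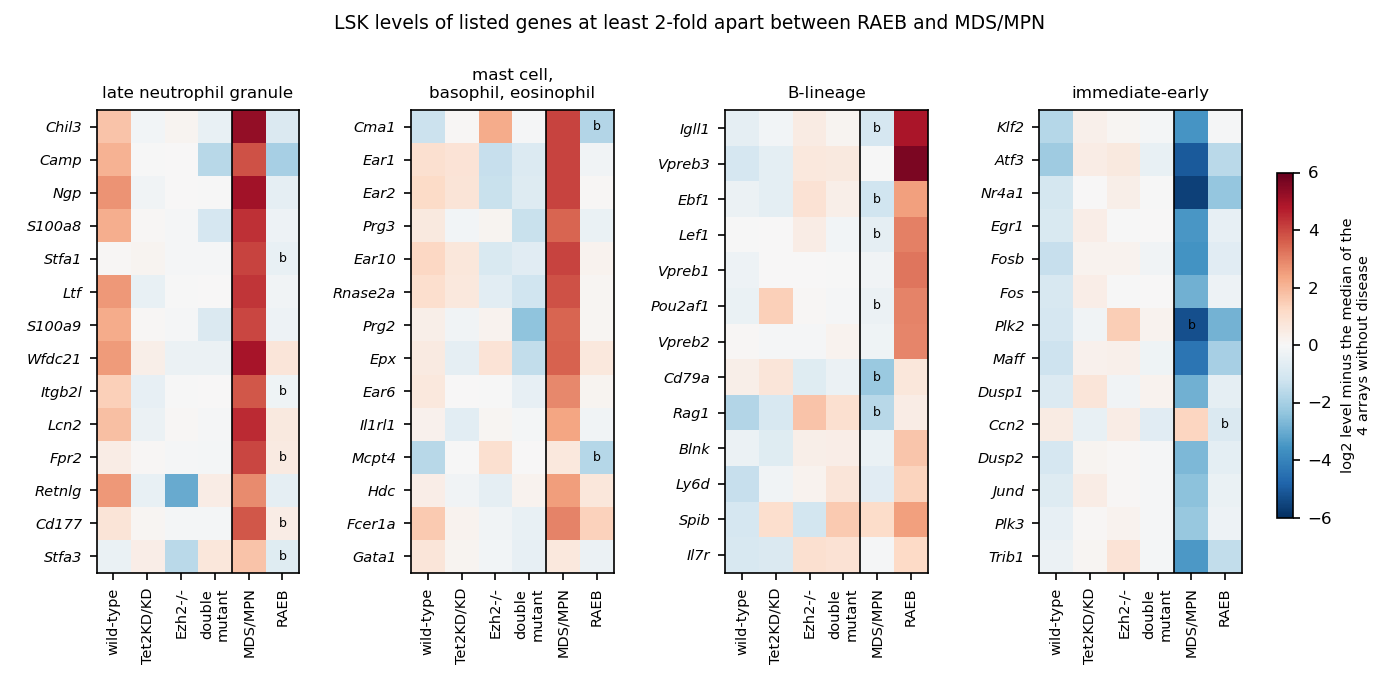
Levels on the 6 LSK arrays (columns) of up to 14 genes per list that were at least 2-fold apart between RAEB and MDS/MPN, as log2 level minus the median of the 4 arrays without disease; red is above and blue below that median, and b marks a diseased array where the probe was not well above background. For most genes of the first 2 lists MDS/MPN stands apart (Camp 4.88, against -0.61 to 3.13 without disease), for most of the B-lineage list RAEB does (Vpreb3 2.55, against -4.11 to -2.47), and for most of the immediate-early list MDS/MPN is the lowest (Nr4a1 2.88, against 7.44 to 8.86).

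Genes of eosinophils, basophils and mast cells were lower in RAEB as well. Of 25 compared, 14 were at least 2-fold lower and 0 higher, with a median of -1.58; over the 23 measured on both arrays, 12 were lower and the median was -1.02. Ear2, an eosinophil ribonuclease, read 0.86 in wild-type, 0.47 in Tet2KD/KD, -1.64 in Ezh2-/-, -1.09 in double mutant, 3.77 in MDS/MPN and -0.22 in RAEB. The MDS/MPN level was above all others and the RAEB level was within the range of the 4. Ear1 (-4.27), Ear10 (-3.84) and Rnase2a (-3.72) are close copies of Ear2 and may share its signal, so these 4 values are not independent.

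The granule toxins gave the same picture with genes that are not copies of the ribonucleases. Prg2, which encodes the major basic protein of eosinophils, read 4.56 in MDS/MPN and 1.18 in RAEB, with -1.31 to 1.44 on the 4 arrays. Its relative Prg3 differed by -3.88 and Epx, the eosinophil peroxidase, by -2.91. Of the mast cell genes, the chymase Cma1 was well above background in MDS/MPN and not in RAEB, and was at least 15.98-fold higher in MDS/MPN. Il1rl1, the interleukin-33 receptor of mast cells and basophils, read 0.22 and -2.38, and the erythroid and eosinophil factor Gata1 2.65 and 1.63, both within the range of the 4 for Gata1. Of the 14 lower genes, 12 lay above the 4 arrays in MDS/MPN and 11 within their range in RAEB.

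Primary granule and GMP genes differed less, and on both diseased arrays most of them were above the arrays without disease. Of 27 compared, 6 were at least 2-fold lower in RAEB and 0 higher, with a median of -0.48. Elane, neutrophil elastase, read 2.50 in wild-type, 2.44 in Tet2KD/KD, 1.69 in Ezh2-/-, 2.41 in double mutant, 5.51 in MDS/MPN and 3.74 in RAEB. Ms4a3, a gene of GMPs, read 5.22 in MDS/MPN and 3.52 in RAEB against at most 1.93 without disease. For both genes the levels without disease, in RAEB and in MDS/MPN formed ascending steps that did not overlap. For 2 of the 6 lower genes RAEB lay within the range of the 4 instead. Cebpe, the transcription factor needed for late granules, read 2.75 in MDS/MPN and 0.32 in RAEB, with -0.98 to 0.49 without disease. The ficolin gene Fcnb had the largest difference of the list: it was well above background in MDS/MPN and on no other LSK array, and was at least 14.8-fold lower in RAEB. Over the list, MDS/MPN lay above the 4 arrays for 21 of 27 genes and RAEB for 17.

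Monocyte and macrophage genes differed in both directions. Of 24 compared, 3 were 2-fold higher in RAEB and 3 lower, and RAEB lay above the 4 arrays for 22 of 24 and MDS/MPN for 19. The lectin Lgals3 read 2.35 in MDS/MPN and 0.78 in RAEB, and F13a1, a clotting factor gene of monocytes, 4.16 and 3.13. The other F13a1 probe differed by -0.84, and the F13a1 difference was at least 2-fold under 4 of 7 alternatives. Cybb, a subunit of the oxidase of phagocytes, was at least 5.37-fold higher in MDS/MPN. In the other direction C1qa and C1qc, complement genes of tissue macrophages, were at least 4.52-fold and 6.53-fold higher in RAEB and not well above background in MDS/MPN. C1qb differed by 0.93. The remaining higher gene, Klf4 (1.71), is also an immediate-early gene and was the only higher one measured on both arrays.

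B-lineage genes were higher in RAEB. Of 29 compared, 14 were at least 2-fold higher and 0 lower, and the median was 0.81; over the 21 measured on both arrays, 8 were higher and the median was 0.46. Vpreb3, a protein of the pre-B cell, read -4.11 in wild-type, -3.69 in Tet2KD/KD, -2.47 in Ezh2-/-, -2.53 in double mutant, -3.14 in MDS/MPN and 2.55 in RAEB. It was well above background on both diseased arrays and on 2 of the other 4, and RAEB, 51.7-fold above MDS/MPN, stood apart from all 5. Vpreb1, a surrogate light chain gene, read 3.15 in RAEB, -0.28 in MDS/MPN and -0.38 to -0.04 without disease, so 5 arrays lay within a range of 0.34 and RAEB was 10.72-fold above MDS/MPN.

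The partner genes of the surrogate light chain and the B-cell factors were also higher. Vpreb2, a near-copy of Vpreb1 whose probe may share its signal, differed by 3.19. Igll1, the other part of the surrogate light chain, was at 0.02 in RAEB and not well above background on any other LSK array, and was at least 24.8-fold higher than in MDS/MPN. Pou2af1, a B-cell coactivator, was at least 9.73-fold higher, Ebf1, the factor that specifies B cells, at least 3.01-fold, and the lymphoid factor Lef1 at least 2.53-fold. Cd79a, part of the B-cell receptor, was at least 1.89-fold higher in RAEB.

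The difference did not extend evenly over lymphoid genes. Of the 14 higher B-lineage genes, RAEB lay above the 4 arrays for 12. Il7r, the interleukin-7 receptor, read -1.93 and -0.68, and Ly6d, a marker of B-lineage priming, -0.62 and 1.39. Dntt, the DNA polymerase of early lymphoid cells, read 7.43 in wild-type, 7.32 in Tet2KD/KD, 8.83 in Ezh2-/-, 8.36 in double mutant, 7.14 in MDS/MPN and 7.95 in RAEB, so RAEB was within the range of the 4 and MDS/MPN below it. Rag2 also lay within that range in both, at -2.39 and -1.62. Rag1 differed by 2.08 but was not well above background in MDS/MPN, so this size rests on a dim side. It ran from 0.46 to 2.23 over the 7 alternatives run. Of 21 lymphoid priming genes compared, 3 were 2-fold higher and 0 lower, with a median of 0.19. Over the 20 measured on both arrays, 2 were higher and the median was 0.17. The summed B-lineage signal, 7.74 in MDS/MPN and 8.49 in RAEB, was 7.97 to 9.07 without disease, so RAEB lay within the range of the 4 for the sum and MDS/MPN below it. The part of contained B-lineage cells in the difference was not tested.

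T- and NK-cell genes gave values in both directions. Of 26 compared, 5 were 2-fold higher in RAEB and 2 lower, with a median of 0.47. Over the 20 measured on both arrays, 1 was higher, 2 were lower and the median was 0.20. Cd3g, a T-cell receptor subunit, was at least 4.57-fold higher in RAEB, Cd2 at least 3.77-fold, Cd3d at least 3.52-fold and Il2rb, an interleukin-2 receptor subunit, at least 3.5-fold. Granzyme A (Gzma) differed by 1.96. Granzyme B (Gzmb) read -2.41 in wild-type, -2.59 in Tet2KD/KD, -2.37 in Ezh2-/-, -2.13 in double mutant, -0.16 in MDS/MPN and -2.94 in RAEB. Unlike the T-cell receptor genes it was highest in MDS/MPN, and the chemokine gene Ccl5 was as well (4.38 against 2.55). In the plasma cell list 1 of 10 genes was higher and 2 were lower. Jchain, the joining chain of secreted antibodies, was at -1.24 in MDS/MPN and not well above background in RAEB, at least 10.2-fold lower, and both lay below the 0.04 to 3.41 of the 4 arrays without disease.

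**Figure D4:**
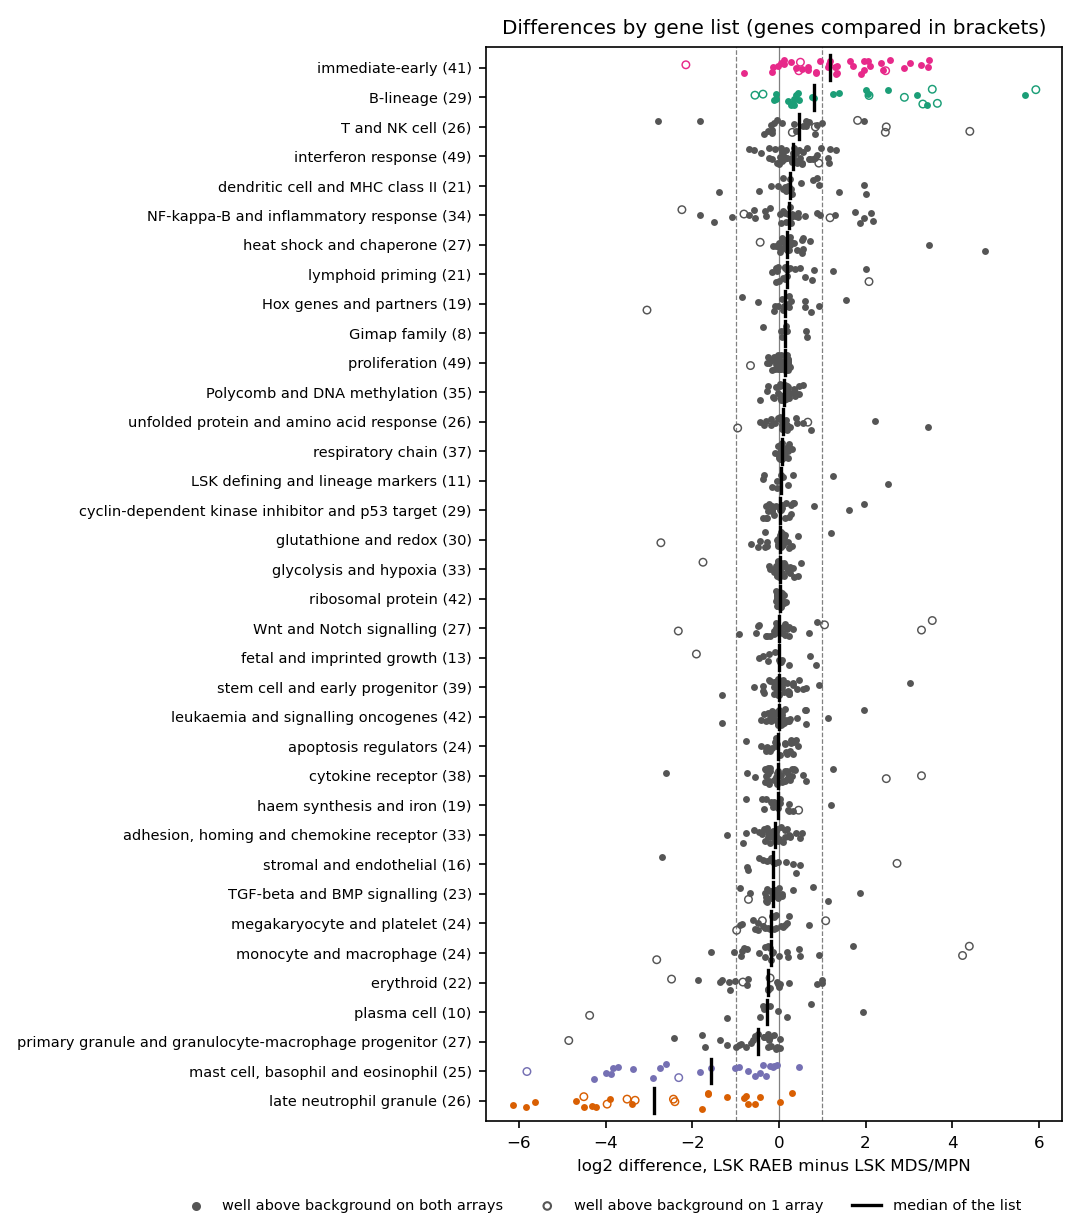
Log2 difference between LSK RAEB and LSK MDS/MPN (horizontal) for each gene compared in 36 lists (rows, sorted by median, with the number of genes); filled points were well above background on both arrays, open points on 1, the bar is the median and the dashed lines are 2-fold. The late neutrophil list has the lowest median (-2.88) and the immediate-early list the highest (1.17), while proliferation and ribosomal protein genes lie within 2-fold.

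Immediate-early genes were higher in RAEB, and for these the MDS/MPN array stood apart. Of 41 compared, 23 were at least 2-fold higher and 1 lower, with a median of 1.17. Over the 37 measured on both arrays, 22 were higher, 0 lower and the median was 1.30. Nr4a1, an orphan nuclear receptor, read 7.44 in wild-type, 8.51 in Tet2KD/KD, 8.86 in Ezh2-/-, 8.48 in double mutant, 2.88 in MDS/MPN and 6.16 in RAEB. RAEB was 9.74-fold above MDS/MPN and still below the lowest of the 4 arrays.

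For most of the AP-1 genes and their relatives RAEB lay within the range of the arrays without disease. Fos, a subunit of AP-1, read 6.595 in wild-type, 7.96 in Tet2KD/KD, 7.54 in Ezh2-/-, 7.59 in double mutant, 4.70 in MDS/MPN and 7.27 in RAEB, so RAEB lay within the range of the 4 and MDS/MPN below it. Fosb (2.89), Atf3 (3.44), Klf2, a transcription factor of quiescent cells (3.46), and the zinc-finger factor Egr1 (3.03) had the same order, with RAEB within the range of the 4. Maff, a small partner of AP-1-type factors, read -2.17 in MDS/MPN and 0.22 in RAEB and lay below the lowest of the 4 (0.95) on both. The kinase Plk2 was not well above background in MDS/MPN and at least 5.52-fold higher in RAEB, and the 4 arrays lay above both, between -0.12 and 2.37.

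The phosphatases that switch off MAP kinases, Dusp1 (3.08 and 5.44) and Dusp2 (5.35 and 7.46), also read higher in RAEB. Of the 23 higher genes, MDS/MPN lay below the 4 arrays for 22. RAEB lay within the range of the 4 for 14 and below it for 9. Over all 41 genes compared, MDS/MPN lay below the 4 for 34 and RAEB for 20. The shares over all genes were 24.4% and 21.9%. The summed immediate-early signal was 8.63 in MDS/MPN, 10.29 in RAEB and 10.27 to 11.35 without disease, where wild-type was the lowest. The gene that was lower, the matrix protein gene Ccn2, was not well above background in RAEB and on the bound at least 1.07-fold lower.

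Other stress and signalling lists differed less. Of 34 NF-kappa-B and inflammatory genes, 7 were 2-fold higher in RAEB and 4 lower, with a median of 0.23. The chemokine gene Ccl3 (2.16), the activation antigen Cd69 (2.13), Tnf (1.87) and the NF-kappa-B inhibitor Tnfaip3 (1.76) were higher, and in MDS/MPN all 4 lay below the arrays without disease. Ptgs2, the inducible cyclooxygenase, ran the other way and read -0.96 in MDS/MPN and -2.46 in RAEB against 0.24 to 1.45 without disease. Of 49 interferon-response genes, 4 were higher and 0 lower, with a median of 0.32: Ifi27l2a (1.32), Oas2 (1.18), the interferon regulatory factor Irf7 (1.17) and the interferon-induced protease Usp18 (1.13).

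Among 27 heat shock and chaperone genes the median was 0.20, and 2 genes were far above it. Hspa1a, the inducible Hsp70, read -2.66 in wild-type, -0.40 in Tet2KD/KD, -0.19 in Ezh2-/-, -2.84 in double mutant, -2.47 in MDS/MPN and 2.29 in RAEB. RAEB was the highest of the 6 arrays, 26.9-fold above MDS/MPN, while the arrays without disease already spread over 2.65; a near-identical copy, Hspa1b, may share the probe's signal. The small chaperone Hspb1 read -3.16 and 0.30, with -2.80 to -0.42 without disease. The co-chaperone Dnajb1, by contrast, read 5.65 and 6.17, within 2-fold.

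Several lists that bear on the genotype and on stem cells were close to level between the diseased arrays. Of 35 Polycomb and DNA methylation genes, 49 proliferation genes, 42 ribosomal protein genes and 37 respiratory chain genes, 0 were 2-fold apart in either direction; none of these counts has a test. Their medians were 0.12, 0.14, 0.01 and 0.06. Of 39 stem cell and early progenitor genes, MDS/MPN lay below the 4 arrays without disease for 23 and RAEB for 22. The shares over all genes compared were 24.4% and 21.9%. Between RAEB and MDS/MPN, 1 of the 39 was higher and 1 lower, with a median of 0.01. The higher gene was Egr1, which the list shares with the immediate-early genes. Mecom, a stem cell transcription factor, read -0.05 in wild-type, -1.06 in Tet2KD/KD, -1.33 in Ezh2-/-, -0.78 in double mutant, -2.80 in MDS/MPN and -4.12 in RAEB, so both diseased arrays lay below the 4. It was the lower gene of that list, but its other probe differed by only -0.38, and the difference was at least 2-fold under 5 of 7 alternatives. Of 19 Hox genes and partners, 1 was higher and 1 lower, with a median of 0.15. MDS/MPN lay below the 4 arrays for 11 of the 19 and RAEB for 10. Hoxb2 read -3.46 in MDS/MPN and -1.90 in RAEB, within the range of the 4, and Hoxc4 was at least 1.67-fold lower in RAEB, where it was not well above background.

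Erythroid genes leaned to MDS/MPN, with 7 of 22 lower and 2 higher in RAEB. Car1, a carbonic anhydrase of early erythroid cells, read 1.09 in MDS/MPN and -0.79 in RAEB, and -0.69 to -0.06 without disease. Klf1, the erythroid master factor, read -0.92 and -2.23. The 2 higher ones were the alpha-globin genes Hba-a1 (1.00) and Hba-a2 (1.00), which are near-identical copies and count as 1 signal.

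Among genes outside the lists, Mtus2, a microtubule-associated protein, read -2.83 in wild-type, -0.08 in Tet2KD/KD, 0.21 in Ezh2-/-, -0.30 in double mutant, -2.08 in MDS/MPN and 1.24 in RAEB. RAEB was the highest of the 6 arrays. The neurotrophic factor receptor Gfra2 was at least 15.7-fold higher in RAEB, Capns2 at least 8.08-fold and Drc3 at least 7.94-fold. Bmper, a BMP-binding protein, was at least 12.9-fold higher in MDS/MPN, the small GTPase Rhou at least 8.60-fold and Fndc8 at least 8.57-fold. Gfra2, Capns2 and Bmper were not well above background on any of the 4 arrays without disease. No chromosome stood apart: the chromosome medians of the difference, relative to all genes, ran from -0.03 to 0.05, inside the -0.11 to 0.14 seen over the other pairs of LSK arrays.

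The promoters of the genes that were 2-fold apart were read for a motif per list, in windows from 250 bases before to 50 bases after the start site from RefSeq (GRCm38.p6), on both strands. The cyclic AMP response element, TGACGTCA, which is its own reverse complement, was present in 4 of the 33 immediate-early genes compared that had a promoter (12.1%). Of the 18 of these that were 2-fold apart, 3 held it (16.7%). Its share was 2.03% of all genes with a promoter in the table and 3.33% of the genes compared. The 3 are shown because they carry this element, in capitals, beside a large difference: Dusp1 (2.36; element 143 bases before the start), Maff (2.39; 29 bases) and Plk2 (at least 5.52-fold; 62 bases). They lie at chr17:26508423-26508722 on the minus strand, chr15:79347270-79347569 on the plus strand and chr13:110394794-110395093 on the plus strand.
Dusp1: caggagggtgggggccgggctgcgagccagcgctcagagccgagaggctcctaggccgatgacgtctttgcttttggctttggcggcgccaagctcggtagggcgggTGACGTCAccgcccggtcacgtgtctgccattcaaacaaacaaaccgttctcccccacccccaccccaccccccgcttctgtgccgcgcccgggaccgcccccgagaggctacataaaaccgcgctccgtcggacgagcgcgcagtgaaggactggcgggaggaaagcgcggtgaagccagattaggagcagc
Maff: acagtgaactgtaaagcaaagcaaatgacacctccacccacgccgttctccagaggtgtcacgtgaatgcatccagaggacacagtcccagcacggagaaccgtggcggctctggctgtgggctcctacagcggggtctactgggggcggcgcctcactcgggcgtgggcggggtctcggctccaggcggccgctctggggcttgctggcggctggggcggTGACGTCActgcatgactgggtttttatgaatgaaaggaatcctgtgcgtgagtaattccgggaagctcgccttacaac
Plk2: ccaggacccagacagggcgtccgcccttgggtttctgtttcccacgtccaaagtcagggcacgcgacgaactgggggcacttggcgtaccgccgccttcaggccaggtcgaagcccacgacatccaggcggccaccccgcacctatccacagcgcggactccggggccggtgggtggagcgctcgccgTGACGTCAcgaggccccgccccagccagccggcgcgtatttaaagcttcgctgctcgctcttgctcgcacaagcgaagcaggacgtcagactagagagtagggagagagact
The CArG box, the site of serum response factor, was present in 0 of the 18 and in 1.81% of all genes with a promoter, and in 3 of the 33 immediate-early genes compared that had a promoter.

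The motif of the myeloid factor PU.1, GAGGAAGT, was present in 3 of 17 late neutrophil genes that were 2-fold apart (17.6%), against 3.69% of all genes with a promoter, and in 0 of 13 eosinophil, basophil and mast cell genes. Among members compared, whether 2-fold apart or not, 4 of 24 (16.7%) and 1 of 22 (4.55%) of these lists held it. The palindrome of C/EBP factors, TTGCGCAA, was in 0 of either. S100a8 is shown for the first, at chr3:90668821-90669120 on the plus strand, with the match in capitals, read on the opposite strand, 172 bases before the start. The motif of EBF1, CCCNNGGG, was present in 2 of 12 B-lineage genes that were 2-fold apart (16.7%), beside 15.4% of all genes with a promoter and 20.7% of the genes compared. Igll1 is shown for it, at chr16:16863936-16864235 on the minus strand, 231 bases before the start.
S100a8: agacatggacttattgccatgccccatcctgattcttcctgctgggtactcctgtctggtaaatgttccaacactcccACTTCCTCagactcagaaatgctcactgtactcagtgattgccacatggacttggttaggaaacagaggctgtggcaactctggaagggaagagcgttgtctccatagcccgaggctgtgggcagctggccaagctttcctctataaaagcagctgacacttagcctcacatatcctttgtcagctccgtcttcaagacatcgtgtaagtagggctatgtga
Igll1: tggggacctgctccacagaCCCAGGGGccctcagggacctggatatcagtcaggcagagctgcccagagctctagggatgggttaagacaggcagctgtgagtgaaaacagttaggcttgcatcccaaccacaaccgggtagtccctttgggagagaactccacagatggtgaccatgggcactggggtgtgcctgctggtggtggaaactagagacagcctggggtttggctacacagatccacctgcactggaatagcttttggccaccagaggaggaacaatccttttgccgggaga
The core of the interferon-stimulated element, AAANNGAAA, was present in 26 of 35 interferon-response genes compared (74.3%) and in 12.1% of all genes with a promoter. Of the 4 such genes that were 2-fold higher, 1 had a promoter in the table and it held no match. The windows describe letters only, and nothing was measured on binding to them.

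GMPs with the same 2 diseases were measured on 2 further arrays, which lay on another slide again. Xist was not well above background on either of these (-5.56 and -5.59), unlike in the LSK cells. There 671 genes were 2-fold higher in RAEB (5.32% of 12621) and 1281 lower (10.1%). Immediate-early genes had the same direction in both cell types: in GMPs 20 of 40 were higher and 1 lower, with a median of 0.97, and Nr4a1 differed by 2.55. Eosinophil, basophil and mast cell genes were lower in both, with 14 of 23 lower and 1 higher in GMPs (Ear2 -3.28, Epx -3.93). Late neutrophil genes were not: in GMPs 9 of 25 were higher in RAEB and 1 lower, with a median of 0.65, and Chil3 was 4.69 and S100a9 2.53, while Camp was -1.43. B-lineage genes were higher for 2 and lower for 6 of 18. B-lineage and late neutrophil genes thus differed in direction between the cell types, which was not tested. Of the 280 genes higher in LSK RAEB, 124 could be compared in GMPs, where 41 were higher and 16 lower; of the 370 lower genes, 212 could be, and 38 were higher and 46 lower.

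**Figure D5:**
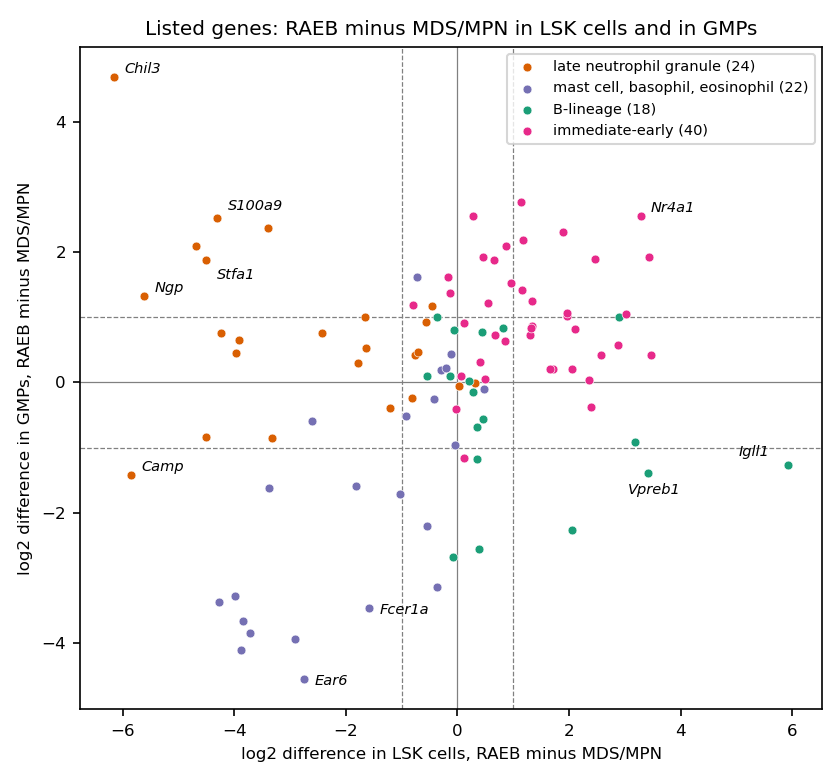
Log2 difference between RAEB and MDS/MPN in LSK cells (horizontal) and in GMPs (vertical) for listed genes compared in both; dashed lines are 2-fold. Nr4a1 (3.29 in LSK cells and 2.55 in GMPs) lies to the upper right, Ear2 (-3.99 and -3.28) to the lower left and Chil3 (-6.15 and 4.69) to the upper left.

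Probes that matched no gene symbol add to these counts. Of 28919 such probes, 11813 were well above background on 1 or both arrays, and 333 were 2-fold higher (2.82%) and 694 lower (5.87%) in RAEB. They are given as counts only, since the files pair them with no gene name used here.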

How the data were processed

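Total RNA of sorted LSK cells and GMPs was measured on 12 one-colour Agilent arrays, 1 for each cell type and condition. Spots were read by the authors with Feature Extraction 10.7.1.1, per the file headers. Its processed signal, used here as deposited, is a linear intensity from which the background has been taken. The deposited raw and background signals are intensities too, and the deposited flags for control spots and signal well above background are recorded as other. The authors' value table held the same intensity at all 62976 spots of each array. No gene spot was saturated, and 59305 gene spots per array were used.

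The processed signal was turned into log2 after division by the array's 75th percentile over gene spots, and spots of 1 probe were averaged. Probes were named by their RefSeq accession through a gene table of assembly GRCm38.p6, for names only, since the headers name mm9. Of 55681 gene probes, 26762 matched 1 symbol and 28919 none. These gave 20284 symbols, of which 20238 had a value on every array. A gene is represented by its brightest probe over the 12 arrays, and it entered the comparison if either array of the pair marked this probe as well above background. It counted as 2-fold apart only if the brighter array did so. Python 3.11.15 with numpy 2.4.6, pandas 2.3.3 and matplotlib 3.10.9 was used, and limma 3.58.1 in R 4.3.3 for normexp. The counting steps were tested on simulated data. With 1 array per group no test was possible, and the number of arrays limits the precision.

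The text names Tet2, Ezh2, Camp, Vpreb3 and Nr4a1, the 12 largest differences in each direction among genes measured on both arrays, the 6 largest bounds in each direction, and up to 8 members of each list described. A few further list members are given as examples and were chosen after their values were seen. Symbols that are clone or locus numbers were counted and not named, and some list members count in their lists but are not reported here by name or in the plot of levels by array. The members and the 37 gene lists, with 982 distinct genes on the array, were chosen with earlier results of these data known. Promoter sequences are those of RefSeq for GRCm38.p6. Alternatives were other scalings, normexp (offset 50), other probes per gene, other filters on dim probes, a 3-fold threshold and leaving out each array without disease.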

Additional observations from a re-analysis of the deposited data

Results flagged for a closer look

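For 14 named genes the difference between RAEB and MDS/MPN was at least 2-fold in LSK cells and at least 2-fold the other way in GMPs. Each value is a log2 difference between single arrays, and the difference between the cell types was not tested. The neutrophil genes were lower in LSK RAEB and higher in GMP RAEB: Chil3 at -6.151 in LSK cells and 4.69 in GMPs, Ngp at -5.62 and 1.33, and Stfa1 at -4.504 and 1.88. The calprotectin genes were as well, with S100a8 at -4.687 in LSK cells and 2.1 in GMPs, and S100a9 at -4.305 and 2.53. Granzyme B (Gzmb, -2.781 in LSK cells and 2.58 in GMPs) and the chemokine gene Ccl5 (-1.826 and 1.52) had the same pattern, and so did the cyclooxygenase gene Ptgs2 (-1.503 and 1.97).

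The matrix gene Fn1 was at -2.703 in LSK cells and 1.06 in GMPs. The Notch ligand gene Jag1 was at -2.323 and 1.34, but it was not well above background in LSK RAEB and its LSK bound is 1.16-fold. The surrogate light chain genes ran the other way, with Vpreb1 at 3.423 in LSK cells and -1.39 in GMPs, and Igll1 at 5.932, not well above background in LSK MDS/MPN, and -1.26. Mtus2 was at 3.314 and -1.81, and the alpha-globin gene Hba-a2 at 1.004 and -2.53.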

How the results depend on the processing

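The counts of genes at least 2-fold apart depended on how dim signals were treated. Against 280 higher and 370 lower genes, normexp background correction gave 75 and 87. Asking for a signal well above background on both arrays gave 121 and 153, no filter on dim probes 520 and 776, and a 3-fold threshold 168 and 192. Quantile normalization, both other percentile or median scalings, both other choices of probe and the value table gave counts within 1.5 times those above. The list medians kept their direction for the 4 leading lists. Late neutrophil genes (-2.88) had a median of -2.614 after quantile normalization, -2.729 with the median of gene spots as the scale and -1.177 after normexp. With the median scale and with normexp the medians were -1.427 and -1.033 for mast cell, basophil and eosinophil genes (-1.58), 0.961 and 0.4616 for B-lineage genes (0.81), and 1.318 and 0.9692 for immediate-early genes (1.17).

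The number of lower genes with RAEB below all 4 arrays without disease was 87 after quantile normalization, against 178. Leaving out each of the 4 arrays in turn gave 187 to 192 for this count, 204 to 217 for higher genes with MDS/MPN below the rest (202), 152 to 158 for higher genes with RAEB above them (148) and 277 to 285 for lower genes with MDS/MPN above them (273). The cause of these shifts was not tested. Among the genes chosen by the naming rule, none that was 2-fold apart had another sign under the 7 alternatives run for it. Sizes did change, and some genes given as "at least" a fold fell below that fold. The smallest log2 differences over the alternatives were 2.61 for Igll1, 2.24 for Gfra2, -1.69 for Cma1, -1.67 for Bmper and -1.89 for Fcnb. Other such genes fell below 2-fold and were 2-fold apart under 6 of the 7 alternatives. Their smallest differences included 0.99 for Drc3, 0.91 for Plk2, 0.84 for Ebf1, 0.60 for Lef1 and 0.48 for Cd79a. For Cd2 the smallest was 0.74, for Il2rb 0.72, for Cd3d 0.64, for Il2ra 0.53 and for Hoxc4 -0.65. Dusp1, Dusp2, Ccn2 and Hba-a1 were not recomputed. Signals near background limit 159 higher and 217 lower genes to a bound on 1 side. No paired analysis was possible because each group has 1 array and all replicate numbers are 1.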

Other observations

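Further lists held single genes that were 2-fold apart between RAEB and MDS/MPN LSK cells. Id3 and Id1, inhibitors of helix-loop-helix factors and targets of BMP signalling, were 1.87 and 1.12 higher on the log2 scale in RAEB, and in MDS/MPN both lay below the 4 arrays without disease. The stress cytokine Gdf15 read -1.22 in MDS/MPN and 0.41 in RAEB, and the kinase Plk3 -1.07 and 0.91; they were the 2 of 29 kinase inhibitor and p53 target genes that were 2-fold apart. Haem oxygenase (Hmox1) read -1.26 in MDS/MPN and -0.07 in RAEB against -1.01 to -0.21 without disease, so the 2 arrays lay on opposite sides of that range. Its other probe differed by only 0.60, and the Hmox1 difference was at least 2-fold under 5 of 7 alternatives. Il2ra, an interleukin-2 receptor subunit, was at least 2.64-fold higher in RAEB. Gpx3, a secreted glutathione peroxidase, was at least 5.93-fold higher in MDS/MPN. Of 21 dendritic cell and MHC class II genes compared, 3 were higher and 1 lower in RAEB, with a median of 0.25. The higher genes were the maturation marker Cd83 (1.96), Spib (1.39) and Ly6d (2.02). Spib is also in the B-lineage list, and Ly6d is the marker of B-lineage priming given above. The lower one, Zbtb46, a factor of classical dendritic cells, read -2.58 in MDS/MPN and -3.97 in RAEB, with -3.92 to -3.30 without disease.

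Of 24 apoptosis regulators and 8 Gimap genes compared, 0 were 2-fold apart in either direction, with no test. Of 24 megakaryocyte and platelet genes 1 was higher: Tubb1, whose bound is 1.17-fold.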
